A study of Saccharomyces cerevisiae with 11 samples.

Results

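The genes described here are 47 ribosome biogenesis and rRNA processing factors of budding yeast, taken by their systematic names from the 6668 coding sequences that every count table listed. They were listed by their known function, with earlier results of these data in view. All 47 were found in all tables and in the reference annotation. By role they fell into 3 box C/D snoRNP proteins, 3 box H/ACA snoRNP proteins, 15 small subunit processome factors, 16 large subunit assembly factors, 7 DEAD-box helicases and 3 factors of export and cytoplasmic recycling. Their counted coding sequences ran from 147 codons (NHP2) to 2484 codons (UTP20), with a median of 509.

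Messenger RNA (RNA-Seq) and ribosome-protected fragments (ribosome profiling, here called footprints) were sequenced from cells of increasing replicative age, the number of daughters a mother cell has produced. The strain was wild-type BY4743, a diploid that lacks LEU2 and URA3, carries a partial deletion of HIS3 on both homologues and is heterozygous at LYS2 and MET15. Log-phase cells were biotinylated and cultured at 25 °C for 13 h, after which the unlabelled daughters left in the supernatant were Young and the bead-bound mothers were Middle. Aged cells were mothers held for another 24 h in a miniature chemostat aging device (MAD), which keeps beaded mothers on a magnet while daughters are washed out. Every Aged library thus came from the MAD, and every Young and Middle library from batch culture. In comparisons with Aged, age and culture vessel cannot be told apart. RNA-Seq had 2 libraries for each age, and footprints had 2 for Young, 2 for Middle and 1 for Aged. The study's methods call the Young and the Middle samples biological replicates, but neither they nor the labels say whether the libraries of an age came from separate cultures, so the p-values measure only the spread between these libraries.

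Ribosome assembly begins in the nucleolus, where a long precursor rRNA is transcribed, modified at sites chosen by box C/D and box H/ACA small nucleolar RNAs, folded and cleaved. The small subunit processome assembles on the 5′ part of that precursor and the large subunit factors on its 3′ part, helicases and GTPases remodel the particles, and export factors take them to the cytoplasm, where the last factors are released. The genes of these factors are known in yeast as a regulon that follows growth rate and nutrient signals, and many of their promoters hold the PAC box and the ribosomal RNA processing element (RRPE), which the repressors Dot6 and Tod6 and the factor Stb3 are known to bind.

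What most members shared in sequence was this pair of motifs, and the stretches that hold it are shown for 7 members named when the list was drawn up (5 of the 6 roles, no helicase), and for NOP7, the member with the smallest adjusted p in any RNA comparison. Each line is the coding strand of the S288C genome (R64, sacCer3) upstream of the start codon, with the RRPE and PAC matches in capitals (CTCATC is GATGAG read on the other strand).
NOP1 (YDL014W, chrIV:427129-427175, plus strand): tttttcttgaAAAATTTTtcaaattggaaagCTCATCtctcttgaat
CBF5 (YLR175W, chrXII:505922-506018, plus strand): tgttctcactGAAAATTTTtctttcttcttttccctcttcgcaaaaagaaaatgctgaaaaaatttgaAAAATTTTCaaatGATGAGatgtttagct
NSR1 (YGR159C, chrVII:807810-807853, minus strand): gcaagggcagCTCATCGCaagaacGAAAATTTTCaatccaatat
UTP10 (YJL109C, chrX:217394-217435, minus strand): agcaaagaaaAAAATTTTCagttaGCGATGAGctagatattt
BMS1 (YPL217C, chrXVI:143262-143301, minus strand): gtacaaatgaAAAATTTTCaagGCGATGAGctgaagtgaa
NOP7 (YGR103W, chrVII:695265-695330, plus strand): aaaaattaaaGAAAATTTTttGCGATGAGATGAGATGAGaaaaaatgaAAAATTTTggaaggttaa
ERB1 (YMR049C, chrXIII:370595-370646, minus strand): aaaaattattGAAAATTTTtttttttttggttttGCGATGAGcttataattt
NMD3 (YHR170W, chrVIII:443658-443700, plus strand): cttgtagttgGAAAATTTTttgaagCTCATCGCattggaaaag

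In BMS1 the 2 matches lay within 40 printed bases. There the RRPE core began 120 bases and the PAC core 106 bases before the start codon. In NOP1 they lay farther out and began 225 and 204 bases before it. NOP7 held overlapping copies of the PAC core between 2 RRPE cores.

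The motifs were searched on both strands of the 250 bases before each start codon, as GATGAG (PAC core), GCGATGAG (PAC), AAAATTTT (RRPE core) and GAAAATTTT (RRPE), where each longer form contains its core. The PAC core stood in 45 of 47 members (95.7%) and in 16.4% of 5954 other windows. The RRPE core stood in 39 of 47 members (83%) and in 8.06% of the other windows. Both cores together were found in 37 of 47 members (78.7%), in 3.49% of other genes and in 0.73% of 137 cytosolic ribosomal protein genes. Of the longer forms, PAC stood in 57.4% of members and 3.41% of other genes, and RRPE in 57.4% and 4.15%. A match describes the letters of a window and not a site in use, and the motifs were first described in genes of this kind, so the shares are a description.

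**Figure D1:**
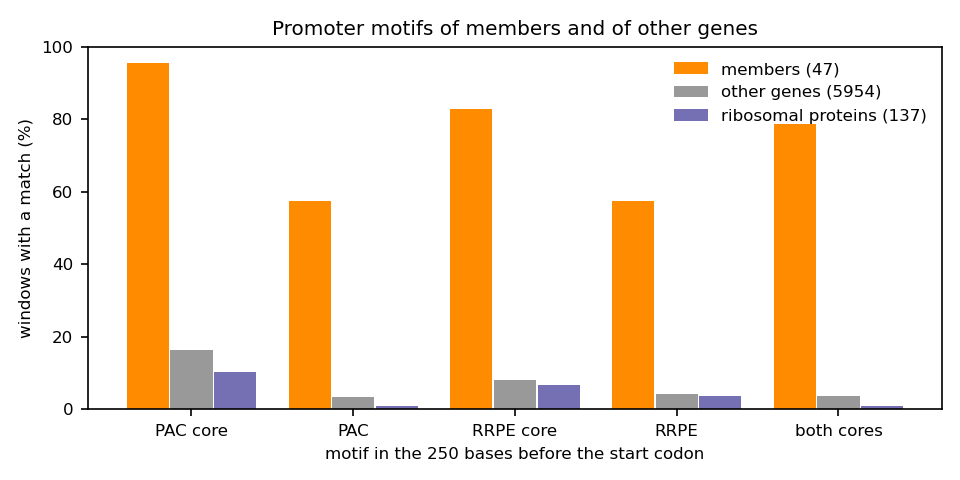
Share of promoter windows (%) with each motif, for the 47 members, 5954 other genes and 137 cytosolic ribosomal protein genes. The bars of the members stand at 57.4% or more for each single motif and at 78.7% for both cores, and those of the other genes stay at or under 16.4%.

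Across the series, the tables summed to between 476704 and 2585717 counts for RNA-Seq and between 168247 and 965156 for footprints, and in both assays the first Middle library was the smallest. Genes that the strain should lack had counts in every library: LEU2 had 16 to 142 RNA counts and URA3 had 36 to 412. The 13 haploid-specific and mating genes fixed as markers are ones that a diploid should not express. They summed to 302 and 234 CPM in Young RNA, 189 and 169 in Middle and 103 and 128 in Aged. None of the 13 was at 0 in all RNA libraries, and MFA1, STE5 and HO were at 0 in all footprint libraries. The 11 daughter-specific genes, also markers, summed to 1227 and 579 CPM in Young RNA, 1354 and 762 in Middle and 1777 and 1709 in Aged. None of these 11 was at 0 in RNA. Their part in the results below was not tested.

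Levels are given as CPM, the counts of a gene scaled to the depth of its library and by edgeR's TMM factors within each assay. The first of 2 values is always replicate 1. Together the members took 0.420% and 0.367% of all RNA counts in Young, 0.121% and 0.295% in Middle and 0.332% and 0.754% in Aged. Of footprint counts they took 0.245% and 0.263% in Young, 0.0719% and 0.206% in Middle and 0.206% in the Aged library. Both Middle libraries lay under both Young libraries in each assay, while the Aged RNA libraries lay on either side of Young.

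Per unit of coding length (TPM, counts per codon scaled to the same total in every library), the members with the highest means of the 2 Young RNA libraries were CBF5 at 195 and 136 TPM, NOP56 at 127 and 130 TPM and NHP2 at 82.3 and 151 TPM, and their order differed between the replicates. At the low end were IMP3 at 14.8 and 22.4 TPM, IMP4 at 15.7 and 23.8 TPM and HAS1 at 23.7 and 19.8 TPM, whose values overlapped. In footprints TIF6 stood highest, at 166 and 308 TPM in Young, while its RNA stood at 66.8 and 114 TPM.

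The sum over the members followed the same course in RNA and footprints up to Middle. Their RNA summed to 4559 and 3482 CPM in Young, 1380 and 2740 CPM in Middle and 3381 and 6808 CPM in Aged. Their footprints summed to 2958 and 2438 CPM in Young, 748 and 1755 CPM in Middle and 2083 CPM in the Aged library. The replicates of an age were as far apart as the ages. In Middle RNA, 43 of 47 members were higher in replicate 2 than in replicate 1, with a median ratio of 2.12, and in Aged RNA 42 of 47 were, with a median ratio of 2.24. In Middle footprints it was 41 of 47 with a median ratio of 2.40. Other genes had median ratios of 0.986, 0.999 and 1.05 between the same libraries. The Young pairs were closer: the median ratio was 0.730 in RNA and 0.990 in footprints. The 47 members thus shifted jointly between libraries of the same age and are not independent measurements of an age.

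**Figure D2:**
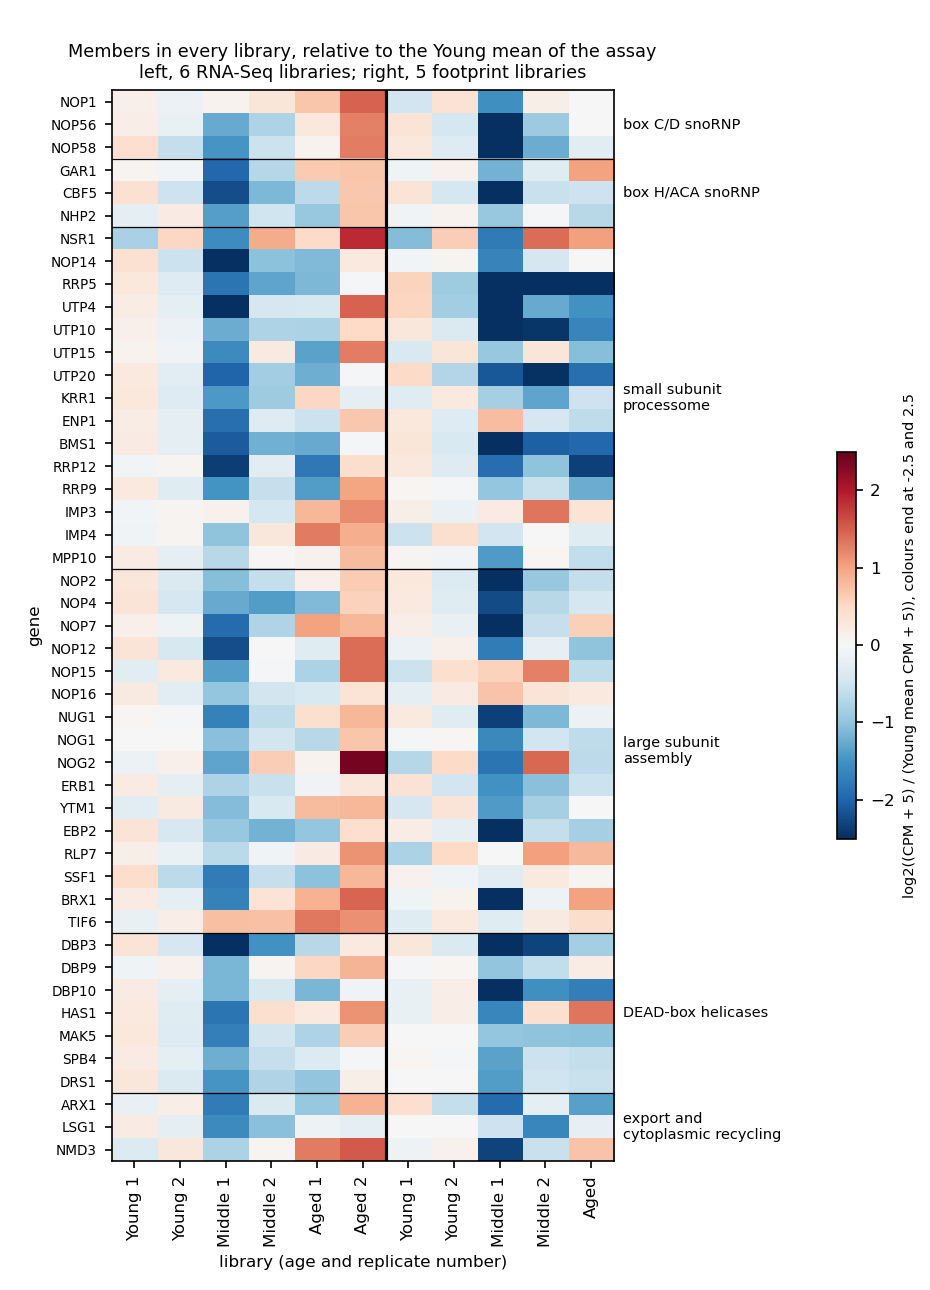
Level of each member in each library, as log2 of CPM (plus a pseudocount of 5 CPM) relative to the Young mean of the same assay, with RNA-Seq on the left, footprints on the right and roles separated by lines. Blue is below and red above the Young mean, and the darkest colours also stand for values beyond the scale. Middle replicate 1 is the bluest column of each assay and Aged replicate 2 the reddest column of RNA.

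**Figure D3:**
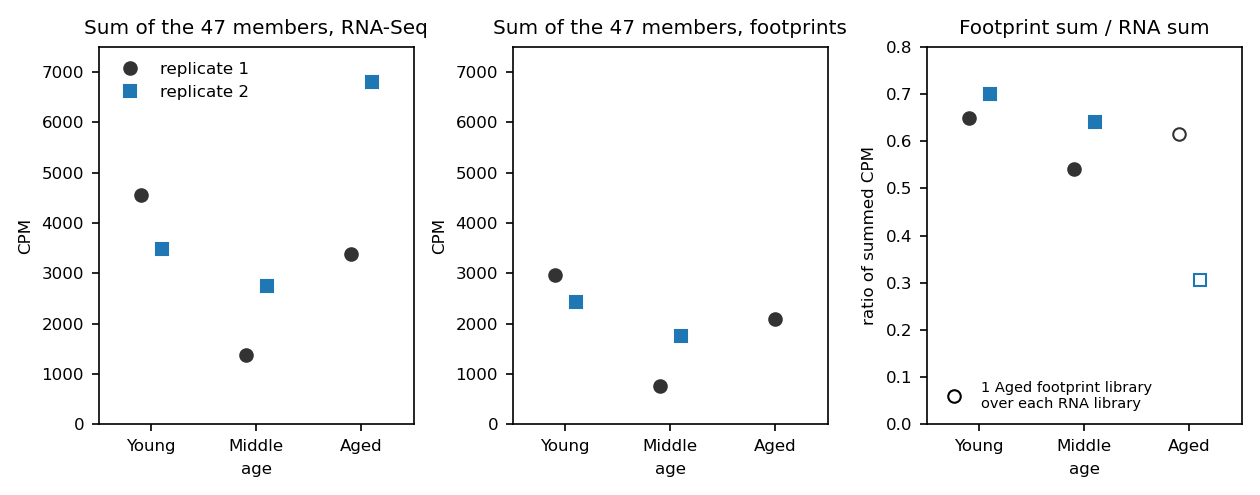
Summed CPM of the 47 members in each RNA-Seq library and each footprint library, and the ratio of the footprint sum to the RNA sum, against age. The RNA sum runs from 1380 CPM in Middle replicate 1 to 6808 CPM in Aged replicate 2. The open symbols divide the single Aged footprint library by each of the 2 Aged RNA libraries and stand at 0.616 and 0.306.

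RNA of most members stood lower in Middle than in Young cells, and 1 passed the test. Of the 46 members that passed the filter on low counts, 42 had a log2 fold change under 0 and the median was -0.87. Over all 5818 genes tested the median was -0.02. More than 2-fold lower were 15 members and 642 of all genes. RRP5, a factor needed for both subunits in yeast, passed the test (log2 fold change -1.55, SE 0.34, adjusted p = 0.047), and no member rose. The test called 0.859% of all genes lower and 2.11% higher. Without adjustment 17 members had a p under 0.05 in the lower direction and 1 in the higher (658 and 719 of all genes). DESeq2 called 4 lower and 0 higher (141 and 259 of all genes). Both Middle libraries lay under both Young libraries in 30 of 46 members, against 29.3% of all genes, and above them in 1 (TIF6), against 28.1%. In bulk samples, fewer cells that make these RNAs and less RNA per cell cannot be told apart. The call rested on Middle replicate 1: without it no member was called (87 genes lower over the whole table) and the median was -0.50. Without Middle replicate 2 the count was 9 (109 genes) and the median -1.76. Without Young replicate 2 it was 12, while calls over all genes also went up, from 50 to 349 lower.

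RNA of the members stood higher in Aged than in Middle cells, and 6 passed the test. All 47 log2 fold changes were above 0, and the median was 1.18 (0.01 over 5674 genes). More than 2-fold higher were 36 members and 689 of all genes. The 6 that passed the test were NOP56, NOP58, NOP2, NOP7, NUG1 and NMD3, and no member fell, where the test called 4.76% of all genes higher and 3% lower. Before adjustment, a p under 0.05 was reached by 27 higher and 0 lower (778 and 650 of all genes). DESeq2 called 8 higher and 0 lower (243 and 176 of all genes). Both Aged libraries lay above both Middle libraries in 26 of 47 members (28.6% of all genes) and below them in 0 (also 28.6%). Aged replicate 2 decided much of the size: without it the median was 0.42, while without Aged replicate 1 it was 1.58. Without Middle replicate 1 the median was 0.90, and without Middle replicate 2 it was 2.18. Each of these fits has a single library in 1 of the ages. The member calls did not hold without Aged replicate 2, and most of them did not hold with either Middle library left out. Calls over all genes also fell in these 3 fits.

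Against Young, the log2 fold change of Aged RNA was above 0 in 36 of 47 members and under 0 in 11. Over all genes tested it was above 0 in 2903 of 5897. The median log2 fold change was 0.37 (-0.02 over 5897 genes), and 9 of 47 members were more than 2-fold higher (764 of all genes). Only TIF6 and NMD3 rose, and none fell, while the test called 8.02% of all genes higher and 4.93% lower. Before adjustment, members with a p under 0.05 numbered 10 higher and 0 lower (902 and 743 of all genes). DESeq2 called 3 higher and 0 lower (445 and 282 of all genes). Both Aged libraries lay above both Young libraries in 13 of 47 members (29.5% of all genes) and below them in 0 (28.9%). The sign of the median rested on Aged replicate 2: without it the median was -0.36, while without Aged replicate 1 it was 0.85. With either Young replicate left out no member was called, as calls over all genes went from 473 higher and 291 lower to 234 and 87 without Young replicate 1 and to 0 and 0 without Young replicate 2. The comparisons with Young and with Middle share libraries, so their values stand side by side and are not independent.

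**Figure D4:**
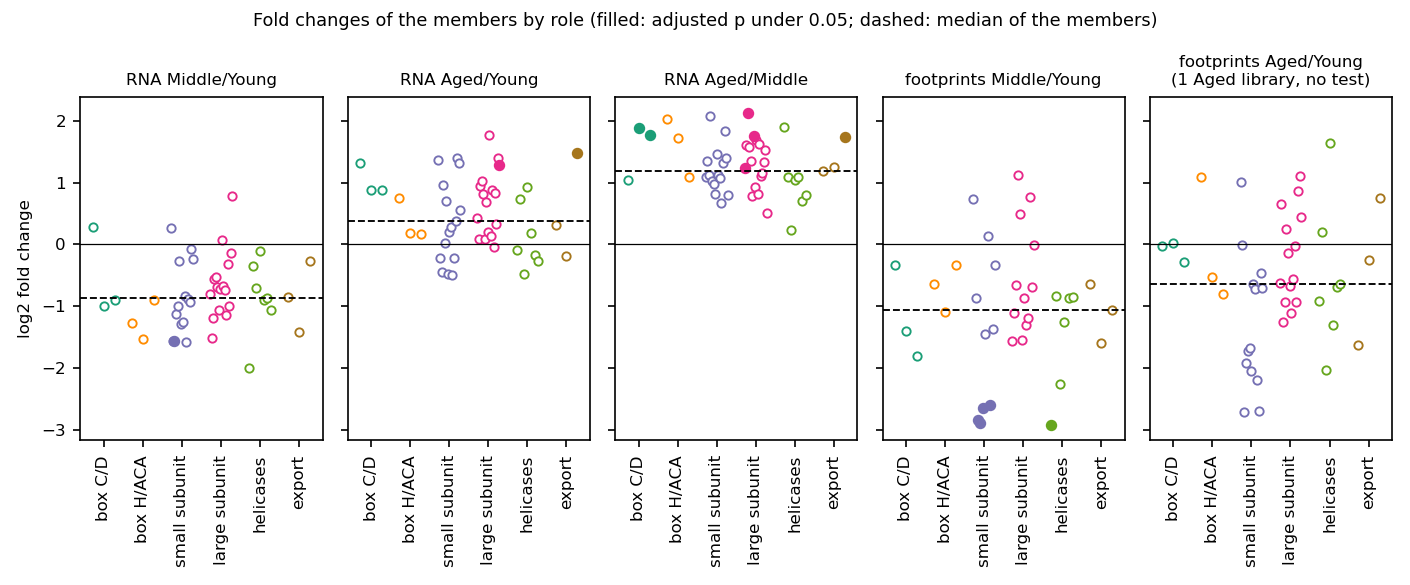
Log2 fold change of each member that passed the filter on low counts, by role, for 5 comparisons. Filled points passed an adjusted p of 0.05, and the dashed line is the median of the members, at -0.87, 0.37, 1.18, -1.06 and -0.63 from left to right.

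The box C/D proteins carry the guide RNAs of 2′-O-methylation. NOP1, the methyltransferase known in animals as fibrillarin, had 31.8 and 25.7 CPM of RNA in Young, 31.0 and 36.7 in Middle and 49.4 and 88.4 in Aged. Its Aged libraries lay above all others, with a log2 fold change to Young of 1.31 (SE 0.42, adjusted p = 0.065). NOP1 was 1 of the 4 members that were not lower in Middle, at 0.28 (SE 0.42). NOP56, a core protein of the same particle, had 195 and 152 CPM of RNA in Young, 69.2 and 99.6 in Middle and 209 and 421 in Aged, and the ages did not overlap. It was higher in Aged than in Middle by 1.88 on the log2 scale (SE 0.37, adjusted p = 0.016). NOP58, its partner, was higher by 1.77 (SE 0.45, adjusted p = 0.047), from 40.6 and 81.9 CPM in Middle to 129 and 303 in Aged. In footprints NOP56 had 251 and 145 CPM in Young, 30.9 and 103 in Middle and 200.2 in the Aged library, which lay between the Young values.

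The box H/ACA proteins guide pseudouridylation, and CBF5 is the enzyme. CBF5 RNA stood at 286 and 151 CPM in Young, 43.0 and 98.1 in Middle and 137 and 350 in Aged. Middle lay below Young without overlap (log2 fold change -1.53, SE 0.44, adjusted p = 0.089), and Aged enclosed the Young values. GAR1 RNA had 35.2 and 31.5 CPM in Young, 4.8 and 18.4 in Middle and 55.1 and 56.8 in Aged. The 3 ages of GAR1 did not overlap, and Aged to Middle was 2.03 (SE 0.53, adjusted p = 0.053). NHP2, the third core protein, had 37.4 and 52.4 CPM in Young, 14.3 and 30.4 in Middle and 20.9 and 75.8 in Aged. Here Aged overlapped both other ages. Footprints of GAR1 were 31.8 and 37.5 CPM in Young, 12.4 and 27.3 in Middle and 74.4 in the Aged library, where CBF5 had 139, 78.6, 12.4, 72.2 and 74.4.

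The small subunit processome assembles around the U3 snoRNA. UTP10, a large scaffold of the processome, had 243 and 199 CPM of RNA in Young, 90.7 and 126 in Middle and 125 and 314 in Aged. Its RNA fold change from Young to Middle was -0.99 (SE 0.30, adjusted p = 0.096), and from Young to Aged 0.02 (SE 0.40). BMS1, a GTPase of the processome, had 242 and 173 CPM in Young, 45.4 and 86.8 in Middle and 83.6 and 201 in Aged. RRP5 had 311 and 206 CPM in Young, 69.2 and 101 in Middle and 116 and 254 in Aged. In all 3, Middle lay below Young without overlap and Aged replicate 2 was back in or above the Young range.

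NSR1, a nucleolin-like protein, differed widely between replicates. Its RNA had 39.7 and 107 CPM in Young, 21.5 and 145 in Middle and 104 and 280 in Aged. No comparison of NSR1 RNA passed the test. UTP4, another processome protein, was at 0 counts in Middle replicate 1 and at 35.3 CPM in replicate 2, against 56.7 and 41.4 in Young and 36.1 and 145 in Aged. IMP4, which binds the U3 snoRNA with IMP3 and MPP10, had 13.6 and 15.8 CPM in Young, 4.8 and 19.1 in Middle and 43.7 and 32.2 in Aged, and its Aged libraries lay above all others (log2 fold change to Young 1.31, SE 0.46, adjusted p = 0.085). NOP14 had 149 and 75.9 CPM in Young, 14.3 and 52.2 in Middle and 49.4 and 134 in Aged, with Middle below Young and Aged overlapping both. Over the 14 members of this group that were tested, the median in Middle was -0.96 and 6 were more than 2-fold lower.

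Large subunit assembly factors held 3 of the 6 members called higher in Aged than in Middle. NOP7, which forms a complex with ERB1 and YTM1, had 153 and 128 CPM of RNA in Young, 33.4 and 81.2 in Middle and 289 and 253 in Aged. The 3 ages did not overlap, and the difference of Aged from Middle was 2.13 (SE 0.36, adjusted p = 0.0084), the smallest adjusted p of any member in that comparison. ERB1 had 118 and 85.8 CPM in Young, 57.3 and 67.8 in Middle and 95.0 and 126 in Aged, and its Aged values overlapped Young. NUG1, a nucleolar GTPase, was higher in Aged than in Middle by 1.75 (SE 0.42, adjusted p = 0.039), and NOP2, a methyltransferase of the large rRNA, by 1.24 (SE 0.30, adjusted p = 0.042).

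TIF6, the yeast eIF6, keeps new large subunits from joining small ones until it is released. TIF6 RNA had 48.8 and 63.1 CPM in Young, 97.9 and 96.0 in Middle and 146 and 130 in Aged. It was the 1 member whose Middle libraries both lay above Young, and it rose in Aged (log2 fold change 1.28, SE 0.33, adjusted p = 0.029). Its footprints showed less change, at 136 and 202 CPM in Young, 136 and 199 in Middle and 232 in the Aged library.

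The other large subunit members named by the rule had wide replicates. BRX1 had 31.8 and 21.6 CPM of RNA in Young, 4.8 and 35.3 in Middle and 53.2 and 82.1 in Aged (log2 fold change of Aged to Young 1.40, SE 0.42, adjusted p = 0.052). NOG2, a GTPase of the late nuclear particle, had 49.9 and 60.9 CPM in Young, 19.1 and 87.6 in Middle and 58.9 and 312 in Aged. For NOG2 the Aged replicates alone differed more than any 2 libraries of the other ages. NOP16 RNA had 71.5 and 49.5 CPM in Young, 28.6 and 42.4 in Middle and 45.6 and 77.7 in Aged, NOP15 had 26.1, 40.0, 9.5, 31.8, 17.1 and 94.7 in the same order, and RLP7 had 54.5, 43.3, 28.6, 45.9, 57.0 and 112. None of these 3 passed a test.

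The DEAD-box helicases unwind RNA duplexes in the assembling particles. DBP3 RNA had 121 and 70.0 CPM in Young, 11.9 and 30.4 in Middle and 57.0 and 115 in Aged, and its Middle fold change of -1.99 (SE 0.49, adjusted p = 0.058) was the lowest of all members. DBP9 had 59.0 and 68.9 CPM in Young, 26.3 and 67.8 in Middle and 93.1 and 120.0 in Aged, and HAS1, which acts on both subunits, had 36.3, 23.1, 4.8, 41.0, 36.1 and 70.7. Aged of DBP9 lay above all other libraries. DBP10 had 104 and 76.3 CPM in Young, 38.2 and 67.1 in Middle and 38.0 and 85.2 in Aged, and it had the smallest difference of Aged from Middle, at 0.23 (SE 0.45). No helicase passed an RNA test.

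NMD3, the adaptor that takes the large subunit through the nuclear pore, had 47.7 and 75.9 CPM of RNA in Young, 33.4 and 65.0 in Middle and 160 and 188 in Aged. Both Aged libraries stood at more than 2 times any other library. NMD3 was the only member to pass the test against both other ages, at 1.47 against Young (SE 0.35, adjusted p = 0.019) and 1.74 against Middle (SE 0.34, adjusted p = 0.017). Its footprints had 46.2 and 55.4 CPM in Young, 6.2 and 33.2 in Middle and 86.0 in the Aged library. LSG1, the GTPase that releases NMD3 in the cytoplasm, had 54.5 and 38.1 CPM of RNA in Young, 11.9 and 19.8 in Middle and 41.8 and 39.2 in Aged, so that its Aged values lay within the Young range. ARX1, an export receptor of the same particle, had 45.4, 58.7, 11.9, 39.5, 24.7 and 98.5 in that order.

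Footprints on most members stood lower in Middle than in Young, and 5 members passed the test. Of the 37 members that passed the filter on low counts, the median log2 fold change was -1.06 (-0.01 over 4167 genes). More than 2-fold lower were 19 members and 689 of all genes. A gene high in Young can pass this filter with few counts in Middle, which favours lower Middle values. Without the filter the median over 47 members was -0.84. The 5 that fell were UTP10, RRP5, UTP20 and BMS1 of the small subunit processome and the helicase DBP3, and none rose, where the test called 4.15% of all genes lower and 2.74% higher. At an unadjusted p under 0.05 there were 14 lower and 0 higher (602 and 457 of all genes). DESeq2 called 4 lower and 0 higher (172 and 149 of all genes). Both Middle libraries lay below both Young libraries in 27 of 37 members (28.1% of all genes) and above them in 2 (28.6%).

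UTP10 footprints had 220 and 138 CPM in Young and 12.4 and 29.3 in Middle (log2 fold change -2.89, SE 0.51, adjusted p = 0.015). RRP5 had 208 and 73.3 CPM in Young and 18.5 and 19.5 in Middle (-2.83, SE 0.62, adjusted p = 0.025). BMS1 had 110 and 66.1 CPM in Young and 6.2 and 17.6 in Middle (-2.59, SE 0.58, adjusted p = 0.027). In these 3 genes the lower Young value was more than 2 times the higher Middle value. UTP20 was at -2.65 (SE 0.62, adjusted p = 0.032) and DBP3 at -2.92 (SE 0.65, adjusted p = 0.026). At the other end, NOP15 had 11.6 and 26.8 CPM in Young and 30.9 and 52.7 in Middle, and RLP7 had 8.7 and 28.6 in Young and 18.5 and 42.9 in Middle, and neither passed the test. Middle replicate 1 held 121 counts over all members, with 40 of 47 at 3 counts or fewer and 8 at 0, so its single values carry large counting error. Without it the median was -0.62, and without Middle replicate 2 the median was -2.15. With 1 Middle library the fit assumes that it varies like the Young ones. Without Middle replicate 1 the same members were called, while calls over all genes rose. Without Middle replicate 2 calls fell among the members and over all genes, and without Young replicate 2 both rose. Across the 37 members, the footprint and the RNA fold changes of Middle had a Pearson correlation of 0.63 and a Spearman correlation of 0.64, and across 4110 other genes of 0.80 and 0.77; the 2 assays were made from the same lysates, so a shift of a lysate enters both.

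The Aged footprints came from 1 library, so their fold changes have no replicate check. Of 43 members, 12 were more than 2-fold lower than Young and 4 more than 2-fold higher, with a median of -0.63, where 18.4% of all genes were past that fold downwards and 16.5% upwards. The 4 were HAS1, BRX1, GAR1 and NSR1. In RRP5 the Aged library had 21.0 CPM, in BMS1 18.9, in UTP10 53.5, in UTP4 7.3 and in DBP10 14.7, each under both Young values. Small subunit processome factors had the lowest median of the roles, at -1.67 over 13 members, with 7 more than 2-fold lower, and the box C/D proteins stood at -0.03. A fit of the 3 ages that takes its spread from the replicated ages, and so assumes that the Aged library varies like them, called BMS1 (adjusted p = 0.038), RRP12 (0.017) and RRP5 (0.022) lower and 0 members higher, where it called 4.06% of all genes lower and 4.79% higher.

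Footprint and RNA values went with coding length. In 5 members of 1000 codons or more (RRP5, UTP10, UTP20, BMS1 and RRP12, all of the small subunit processome), the median Aged footprint fold change was -2.18, against -0.80 for all genes of that length. It was -0.63 for 9 members of 600 to under 1000 codons (-0.30 for all genes), -0.40 for 22 of 300 to under 600 (0.05) and 0.26 for 7 under 300 codons (0.31). The longer the class, the lower was the median of the members, also over the 3 classes without the longest genes, and each median lay under that of all genes. In Middle the same classes of members stood at -2.65, -1.28, -0.96 and -0.17, and those of all genes at -0.39, -0.05, 0.00 and 0.12. In RNA the members stood at -1.29, -0.98, -0.84 and -0.52 in Middle and at -0.45, 0.11, 0.72 and 1.05 in Aged, so RNA also went with length. Across members, log2 of codons had a Spearman correlation of -0.68 with the Middle footprint fold change (n = 37), of -0.52 with the Aged one (n = 43) of -0.42 with the Middle RNA one (n = 46) and of -0.60 with the Aged RNA one (n = 47), and across other genes of -0.14, -0.29, -0.20 and -0.25. Longer genes also have more counts, and these values share their libraries. The length classes were set after the values had been seen, and the part of length in the calls was not tested.

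**Figure D5:**
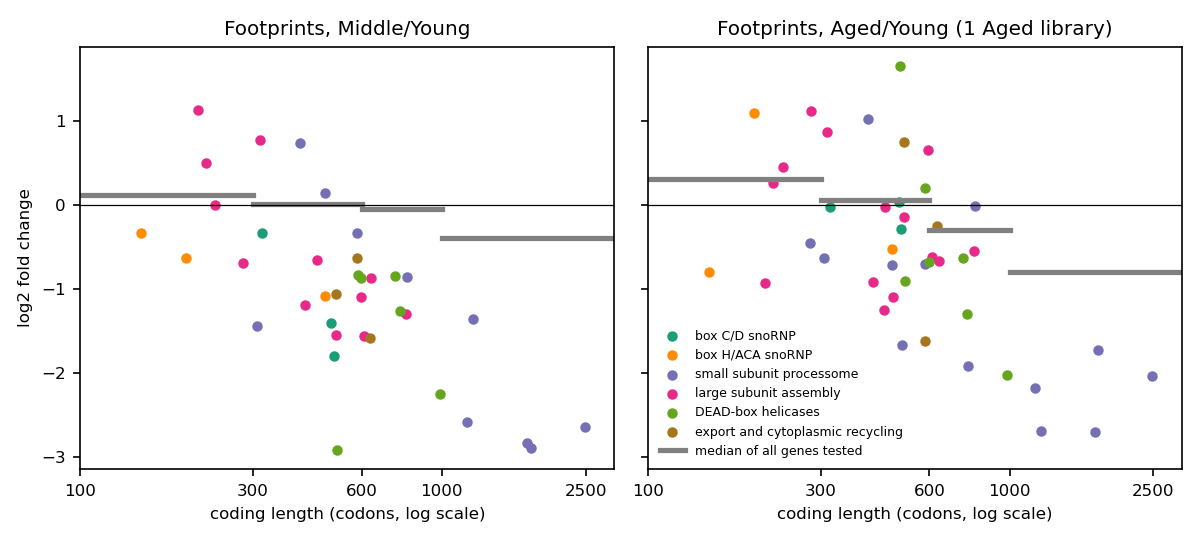
Log2 fold change of footprints against coding length in codons (log scale) for the members, coloured by role, in Middle and in Aged against Young. Grey lines are the medians of all genes tested in 4 length classes. The 5 longest members have medians of -2.65 in Middle and -2.18 in Aged, under the grey line of their class at -0.39 and -0.80.

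Translational efficiency (TE) is the footprint level of a gene relative to its RNA level. The summed footprints of the members over their summed RNA gave 0.649 and 0.700 in the 2 Young lysates and 0.542 and 0.641 in the 2 Middle lysates. With 46 members tested in Middle against Young, the median log2 change of TE was -0.09 (-0.07 over all genes) and the interaction test called 0 members in either direction, as it called 0% of all genes. At an unadjusted p under 0.05 there was 1 member lower (UTP10, -1.83, SE 0.59) and 0 higher, and 105 of all genes lower and 64 higher. DESeq2 called 0 members. With each lysate as a block, UTP10 was called lower, and no other member. Over all 5334 genes that fit called 8 higher and 47 lower. In the interaction test a change of TE of single members, UTP10 included, was not detectable at this depth. The median ran from -1.31 without Middle footprint replicate 2 to 0.80 without Middle RNA replicate 2.

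The TE of Aged cells depended on the RNA library it was set against. The Aged footprint sum was 0.616 times the RNA sum of Aged replicate 1 and 0.306 times that of replicate 2. Against both together, 18 of 47 members were more than 2-fold lower in TE than Young and 0 higher, with a median of -0.77, where 13% of all 6028 genes were lower and 10% higher by that much. Against RNA replicate 1 alone there were 5 lower and 3 higher, with a median of -0.30, and against replicate 2 alone 27 lower and 0 higher, with a median of -1.15. The GEO label of the Aged footprint library has no replicate number, but the legends that accompany the study number it as 1, so the pairing with RNA replicate 1 is the one a source gives. With lysates as blocks, that pairing gave 5 lower and 3 higher by that fold, and 0 members passed the test (13 genes higher and 39 lower of 6028). Pairing it with replicate 2, which no source gives, had 27 members lower and 15 passing (78 genes higher and 127 lower). In both block fits the Aged footprint arm is 1 library and the spread comes from the Young lysates, with 1 residual degree of freedom. A fit of all 11 libraries, with its spread taken from all ages, called 0 members in either direction and 0% of all genes, and before adjustment 2 members had a p under 0.05, both lower.

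Single ratios show the same. UTP4, the lowest of the small subunit group in TE, had a footprint to RNA ratio of 0.815 and 0.345 in Young, and the Aged footprints gave 0.203 over RNA replicate 1 and 0.0507 over replicate 2. NOG2 gave 0.116 and 0.323 in Young and 0.107 and 0.0202 in Aged. For HAS1, the highest of the helicases, they were 0.239 and 0.541 in Young and 0.958 and 0.489 in Aged.

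Other genes of ribosome production had RNA medians of the same sign as the members. Of 51 other large subunit factors tested in Middle, 1 fell and 0 rose, with a median of -0.70, and of 54 other small subunit factors 2 fell and 0 rose, with a median of -0.69. RNA polymerase I and its factor RRN3, which make the precursor rRNA, had 1 of 7 called lower and a median of -0.69. Against Middle, Aged RNA had medians of 0.94 over 50 other large subunit factors (1 higher), 0.95 over 53 other small subunit factors (1 higher) and 1.00 over 7 polymerase I genes (2 higher). The medians of these lists were closer to 0 than those of the members, and the difference was not tested. Cytosolic ribosomal proteins, the substrates of the assembly line, took 0.684% to 1.29% of RNA counts in Young and Middle and 3.56% and 4.18% in Aged; many have near-identical copies, and the treatment of reads shared by them is not given in the sources used here, so their values are uncertain. With that limit, 115 of 137 rose from Young to Aged in RNA with a median of 2.18, while 2 of the 47 members did, with a median of 0.37. In Aged footprints the ribosomal proteins had a median of 1.49 and the members of -0.63.

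Genes that share the promoter motifs but are not members lay between the members and the rest. With both cores in the window, 200 other genes had a median of -0.53 in Middle RNA, 162 of them under 0, and 194 had a median of 0.82 from Middle to Aged, 166 of them above 0. With neither core, 4279 genes had a median of 0.03 in Middle and 4188 had a median of -0.04 from Middle to Aged. These other genes include the further biogenesis factors listed above. Within the members, the 37 with both cores had a median of -0.86 in Middle and the 9 tested with 1 core -0.94, so the motifs did not sort the members.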

How the data were processed

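The authors deposited raw counts per coding sequence, 1 table per library, with the counted length in codons. Per the methods and labels, reads were trimmed with Fastp, reads on non-coding RNA were removed, and the rest were aligned to S288C (R64, sacCer3) with STAR 2.7.0a. Several codons at each end of a coding sequence were left out, so that NOP1 had 318 of its 328 codons counted. The use of strand and of reads that map to several places is not given in the sources used here, and SSF1 has a near-identical copy, SSF2. Members, role groups and lists were chosen with earlier results of these data known.

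Counts were tested on all genes with edgeR 4.0.16 (R 4.3.3): genes passing filterByExpr, TMM factors, the quasi-likelihood test, Benjamini-Hochberg adjustment and a threshold of 0.05, in separate fits of the 2 ages compared. TE was the interaction of age and assay. Fold changes used a prior count of 0.125. With the single Aged footprint library, log2 fold changes came from the same kind of fit without a test, and a 3-age fit was added. A dispersion of 0.1 was assumed only in alternative fits that left no residual degrees of freedom. RNA-Seq and footprints of a lysate pair by the study's methods; their deviations correlated at 0.392 in Young and 0.274 in Middle over 5831 genes. DESeq2 1.42.0, other scalings, filters and blocks were tried. The fits were tested on simulated data. Members named with their RNA level in every library were NOP1, NSR1, CBF5, ERB1, UTP10, BMS1 and NMD3, and those added by rule. The rule added the 2 per role with the smallest p for Aged against Young RNA and those with the lowest and highest Aged TE per role. It also added the 2 with the smallest p per direction in the other comparisons. Footprint levels are printed for only some of these members. Others named for a passed test, a level or an extreme value were chosen after their values were seen. Sequences and coordinates are RefSeq's, on the R64 build. Counting intervals were not computed, and PCR reads without molecular identifiers are not independent molecules. Protein features were not analysed here.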

Additional observations from a re-analysis of the deposited data

Results flagged for a closer look

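In 6 members the RNA difference from Young had opposite signs in Middle and in Aged cells, and the difference between these ages, tested directly as Aged against Middle, passed an adjusted p of 0.05 (edgeR). These are all the members called in that comparison. None of them passed the test of Middle against Young, and only NMD3 passed that of Aged against Young. Their signs against Young are therefore a description. On the log2 scale, Aged exceeded Middle by 2.13 for NOP7, 1.88 for NOP56, 1.77 for NOP58, 1.75 for NUG1, 1.74 for NMD3 and 1.24 for NOP2. In NOP7, NOP56, NUG1 and NMD3 both Aged libraries lay above all libraries of the other ages. The calls of these 6 did not hold without Aged replicate 2, and most of them did not hold with either Middle library left out. Each of these fits has a single library in 1 of the ages, and calls over all genes also fell in them.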

How the results depend on the processing

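The sign of the member median held under every other scaling, filter, tool and block tried for RNA and footprints; it changed for Aged against Young RNA without Aged replicate 2, and for Middle TE under library totals (0.02) and with some libraries left out. Limits include 2 libraries per age (1 for Aged footprints) and member counts with a median of 9 in Middle RNA replicate 1 and 2 in the footprints of that replicate.

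Members called lower in Middle RNA numbered 1 as reported, 0 with library totals, 3 with no filter, 0 with at least 10 counts in every library, 4 with DESeq2, 2 in one fit of 3 ages, and 0 to 12 with 1 library left out, when the median ran from -1.76 to -0.50. Members called higher in Aged than Young RNA numbered 2 as reported. They numbered 3 with library totals, 3 with TMM computed without ribosomal protein genes and members, and 3 with DESeq2. With 1 library left out the median ran from -0.36 to 0.85. The calls of TIF6 and NMD3 did not both hold in any of these fits, which each have a single library in 1 of the ages. Against Middle there were 6 as reported, 10 with no filter and 0 to 21 with 1 library left out (median 0.42 to 2.18). In Middle footprints, 5 were called lower as reported, 10 with no filter, 0 with at least 10 counts in every library (1 member is left, at -0.12) and 3 to 13 with 1 library left out (0 to 1 higher, median -2.15 to -0.62). The Middle TE median ran from -1.31 to 0.80 with 1 library left out. Members more than 2-fold higher in Aged footprints numbered 4 as reported, 1 with at least 10 counts and 2 to 5 with 1 library left out (lower: 12 to 15; median -0.70 to -0.39). For Aged TE the counts ran from 0 to 3 higher and from 5 to 27 lower with 1 library left out (median -1.15 to -0.30).

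Replicate numbers are shared across ages, and no source says that a number marks a shared culture. Deviations of same-numbered libraries correlated at 0.214 between Young and Middle RNA, 0.038 between Young and Aged RNA, 0.315 between Middle and Aged RNA and 0.0822 between Young and Middle footprints. With the replicate number as a block, 2 members were called lower in Middle RNA, 7 higher in Aged RNA, 39 higher in Aged than Middle RNA and 9 lower in Middle footprints, and Aged footprints taken as number 2 gave 2 more than 2-fold higher. With lysates as blocks, 1 member was called lower in Middle TE (8 genes higher and 47 lower of 5334). Aged TE with the footprints as number 1 had 3 higher and 5 lower by 2-fold. Over all genes in Middle RNA, DESeq2 called 259 higher and 141 lower, against 123 and 50 as reported, one fit of 3 ages 217 and 120, the replicate block 337 and 204, the filter at 10 counts 74 and 31, and no filter 90 lower. The block called 784 and 634 in Aged against Middle RNA (270 and 170 as reported), 466 lower in Aged against Young (291), and 281 and 400 in Middle footprints (114 and 173), where no filter gave 268 and 382 and library totals 209 higher. Library totals moved the median of all genes to 0.18 in Middle footprints and to -0.15 in Aged TE. With SSF2 counts added, SSF1 stood at -0.68 in Middle RNA, against -0.99.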
